A study of Mus musculus with 42 samples.

Results

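The antibody variable segments that were read often in mouse lymph nodes are described here, by how much of the antibody message each one carried in each node. A segment was taken when its gene symbol starts with Ighv, Igkv or Iglv (heavy chain, kappa light chain and lambda light chain) and its raw counts summed to 500 or more over the 18 lymph node libraries. Members were thus chosen by their total counts in these same nodes, so their being abundant is no result. This gave 161 segments of the 348 variable segment rows, in a table of 54752 genes. Of these, 76 were Ighv, 82 Igkv and 3 Iglv, and 1 of the Igkv segments, Igkv4-77, is annotated as a pseudogene. The 161 segments held 965894 counts and the rows left out 11187. Of those left out, 50 had no count in any library and 137 had some, below the threshold.

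All mice were C57BL/6 wild type and belonged to a study of knee arthroplasty, in which part of the joint is replaced by an implant. Its purpose was to follow repair of the operated tissue and the response of the draining nodes. Nodes were labelled Implant, ContraImplant or NoImplant and were sampled on day 7 and day 14, with 3 nodes in each of the 6 groups. Animal numbers in the column names place each Implant node in the same mouse as the ContraImplant node of that number (mice 7, 8 and 9 on day 7, mice 25, 26 and 27 on day 14). In these names the Implant node carries surgery and the ContraImplant node no surgery. NoImplant nodes came from other mice (16, 17 and 18, then 34, 35 and 36), whose column names carry neither implant nor surgery. The age of the mice is not given in the sources used here. Soft tissue of the joint from the same study, in 24 libraries, was used once for comparison.

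A variable segment is the piece of an antibody gene that codes for most of the antigen-binding domain. Each B cell joins 1 heavy and 1 light chain segment to shorter pieces when it forms, and all its descendants keep that choice. Plasma cells, the antibody-secreting descendants, carry far more antibody message than resting B cells. In RNA from a whole node, a segment used by an expanded or secreting family of cells therefore takes a larger share of the counts. More cells that use a segment and more RNA per cell cannot be told apart in such samples.

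Segments resemble each other, so their sequences set how surely a read can be placed. Per GENCODE M21 on GRCm38 (mm10), the Igkv members lie on chromosome 6, with 52 of 82 on the minus strand, the Ighv members on chromosome 12 and the Iglv members on chromosome 16. The nearest other segment was at least 95% identical over the last exon for 46 of 76 Ighv and 41 of 82 Igkv members. For 1 Ighv member, Ighv1-71, it was identical (Ighv1-62-2). Igkv5-39, the segment with the largest share, is less closely copied. Its nearest segment, Igkv5-45, is 91.6% identical over 298 bases, with a longest shared run of 49 bases. Igkv5-45 had 446 counts in all 18 libraries and Igkv5-43, the next of the family, 7717, against 139308 for Igkv5-39. The last exon of the 3 segments is shown because the largest result rests on telling them apart. Capitals mark bases that differ, in an alignment, from Igkv5-45 in the first and from Igkv5-39 in the other 2. A base that the alignment places only in the compared segment is not printed, so capitals can be fewer than differences.
Igkv5-39: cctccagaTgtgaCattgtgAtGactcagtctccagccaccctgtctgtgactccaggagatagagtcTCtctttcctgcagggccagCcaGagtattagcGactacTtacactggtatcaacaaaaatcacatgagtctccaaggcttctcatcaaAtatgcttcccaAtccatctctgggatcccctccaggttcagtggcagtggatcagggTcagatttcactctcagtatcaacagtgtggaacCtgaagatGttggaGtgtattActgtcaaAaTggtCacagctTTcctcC
Igkv5-43: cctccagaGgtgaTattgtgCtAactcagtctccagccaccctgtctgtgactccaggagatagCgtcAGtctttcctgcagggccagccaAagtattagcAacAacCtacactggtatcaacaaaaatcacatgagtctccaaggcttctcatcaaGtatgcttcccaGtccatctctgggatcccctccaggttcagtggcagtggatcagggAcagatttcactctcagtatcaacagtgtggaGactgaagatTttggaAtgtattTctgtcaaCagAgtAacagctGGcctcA
Igkv5-45: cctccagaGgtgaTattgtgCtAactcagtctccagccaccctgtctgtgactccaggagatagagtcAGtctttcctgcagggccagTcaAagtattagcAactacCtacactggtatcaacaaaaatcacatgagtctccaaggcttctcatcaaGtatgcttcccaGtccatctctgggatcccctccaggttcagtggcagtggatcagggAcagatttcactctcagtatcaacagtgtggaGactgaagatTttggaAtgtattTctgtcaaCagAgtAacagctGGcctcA
They lie on the minus strand at chr6:69900424-69900721, chr6:69823355-69823652 and chr6:69775750-69776047.

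The next 3 are segments that were each high in both nodes of 1 mouse and low elsewhere. Capitals mark bases that differ from the nearest segment (Igkv4-60, Igkv10-95 and Ighv1-72), with 7, 9 and 12 differences.
Igkv4-53: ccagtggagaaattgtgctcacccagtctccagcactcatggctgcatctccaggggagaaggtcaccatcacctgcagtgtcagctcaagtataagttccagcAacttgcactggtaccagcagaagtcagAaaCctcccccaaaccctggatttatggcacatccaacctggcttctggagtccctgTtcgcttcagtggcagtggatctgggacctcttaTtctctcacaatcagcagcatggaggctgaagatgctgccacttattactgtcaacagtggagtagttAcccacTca
Igkv10-94: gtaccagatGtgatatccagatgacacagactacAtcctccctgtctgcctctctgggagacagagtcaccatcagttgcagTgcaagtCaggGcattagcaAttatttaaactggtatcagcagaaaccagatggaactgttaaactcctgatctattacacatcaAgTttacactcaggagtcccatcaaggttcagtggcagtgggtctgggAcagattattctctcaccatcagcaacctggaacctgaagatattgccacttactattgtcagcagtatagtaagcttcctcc
Ighv1-64: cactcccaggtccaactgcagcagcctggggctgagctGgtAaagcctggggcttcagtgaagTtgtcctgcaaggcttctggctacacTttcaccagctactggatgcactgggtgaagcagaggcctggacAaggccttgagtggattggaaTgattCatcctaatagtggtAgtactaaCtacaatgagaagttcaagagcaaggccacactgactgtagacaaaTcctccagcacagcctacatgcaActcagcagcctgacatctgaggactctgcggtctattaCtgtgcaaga
They lie on the minus strand at chr6:69648824-69649123, chr6:68704508-68704805 and chr12:115507545-115507844.

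The last 2 are the segments that passed the test between groups with ranges that did not overlap. Capitals mark bases that differ, in an alignment, from Igkv9-124 and from Igkv4-70, with 12 and 13 differences. These numbers include bases placed only in the compared segment, which are not printed.
Igkv9-120: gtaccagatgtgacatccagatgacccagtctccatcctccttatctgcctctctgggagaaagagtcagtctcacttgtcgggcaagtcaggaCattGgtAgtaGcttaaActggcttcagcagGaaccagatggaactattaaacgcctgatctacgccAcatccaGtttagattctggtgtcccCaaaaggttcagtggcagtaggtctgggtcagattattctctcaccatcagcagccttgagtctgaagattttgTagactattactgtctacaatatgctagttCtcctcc
Igkv4-69: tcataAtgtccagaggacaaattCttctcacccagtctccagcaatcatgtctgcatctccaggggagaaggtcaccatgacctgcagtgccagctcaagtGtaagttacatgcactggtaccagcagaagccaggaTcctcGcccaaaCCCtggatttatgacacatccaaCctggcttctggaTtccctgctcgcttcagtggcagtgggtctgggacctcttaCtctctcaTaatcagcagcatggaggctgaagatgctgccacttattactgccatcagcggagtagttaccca
They lie at chr6:68050159-68050456 on the plus strand and chr6:69283794-69284092 on the minus strand.

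Total counts per node library ran from 22041900 to 44371001, and the 161 segments took between 0.0800% and 0.520% of them. That is 18829 to 158728 segment counts per library. At this depth the 95% Wilson interval of a share within a locus was at most 1.67 percentage points wide for Ighv. For Igkv it was at most 1.12 and for Iglv at most 4.525 points wide. These intervals cover counting error only. Markers of other cells were uneven between libraries. The sum of 5 adipocyte markers ran from 56.2 CPM (counts relative to the library total, scaled between libraries) to 4467 CPM in ContraImplant day 7 replicate 2. The sum of 5 muscle markers was above 100 CPM in 5 libraries, all of day 7, with 1014 CPM in NoImplant replicate 2 and 639 CPM in ContraImplant replicate 3. The 11 T cell markers summed to between 1802 and 2508 CPM in all 18 libraries and the 20 mature B cell genes to between 11060 and 17750 CPM, as the tissue label says. The part of these other cells in the results was not tested. Groups were compared by quasi-likelihood fits in edgeR on the 18312 genes that passed a filter on low counts, p-values were adjusted over all of them by Benjamini and Hochberg's method, and a gene was called at an adjusted p below 0.05.

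Igkv5-39 had the largest share of any segment, 15.7% of kappa counts in the mean over libraries, or 16.4% when counts were divided by exonic length. The next kappa segments by mean share were Igkv14-126 (4.54%), Igkv19-93 (4.54%), Igkv10-96 (4.22%) and Igkv6-15 (3.38%). In NoImplant nodes the Igkv5-39 share was 2.53%, 2.60% and 11.6% on day 7 and 31.1%, 21.9% and 33.1% on day 14. Every NoImplant node of day 14 was thus above every NoImplant node of day 7, in different mice. In CPM these nodes had 29.1, 21.7 and 62.0 on day 7 and 681, 770 and 296 on day 14, a log2 difference of 3.96 ± 1.43 (SE) that did not pass (edgeR adjusted p of 0.168). In that comparison of days, which was added after the values were seen, no segment passed with edgeR and 0.0164% of all genes did. At an unadjusted p below 0.05 there were 62 segments (38.8%, against 18.9% of all genes), 19 segments had ranges that did not overlap (11.9%, against 25.3%), and DESeq2 called 16 of 150 (10.7%, against 4.38% of all genes). Between days within ContraImplant nodes no segment and 0% of all genes passed (16 segments unadjusted, 10% against 5.3%, and 6 with ranges apart, 3.75% against 7.07%). DESeq2 called 1 segment there (0.667%, against 0.371% of all genes). Within Implant nodes none passed either (0% of all genes, 8 segments unadjusted, 5% against 8.55%, and 8 with ranges apart, 5% against 19.3%), and DESeq2 called none (0.252% of all genes).

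In mice with 2 sampled nodes the share of Igkv5-39 differed between mice far more than between the nodes of a mouse. It was 7.15% in the ContraImplant and 3.92% in the Implant node of mouse 7, 6.48% and 5.11% in mouse 8, and 35.4% and 34.3% in mouse 9. On day 14 it was 4.23% and 4.08% in mouse 25, 11.4% and 10.1% in mouse 26, and 26.2% and 32.1% in mouse 27. One mouse of each day was thus high in both nodes. The Implant node had the higher share in 1 of 6 mice. On the log2 CPM scale the mean absolute difference was 0.55 between both nodes of a mouse and 2.77 between an Implant and a ContraImplant node of different mice on the same day. The edgeR log2 fold change of Implant against ContraImplant was -0.83 ± 1.27 (SE) on day 7 and 0.03 ± 1.26 (SE) on day 14. The edgeR adjusted p was 0.741 and 0.996. This fit did not pair the nodes of a mouse, so each SE holds the spread between mice. In CPM the ContraImplant and Implant nodes had 73.3 and 45.5 in mouse 7, 45.3 and 26.0 in mouse 8, and 888 and 497 in mouse 9. On day 14 they had 23.1 and 26.1 in mouse 25, 164.6 and 111.5 in mouse 26, and 375.6 and 437.7 in mouse 27.

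**Figure D1:**
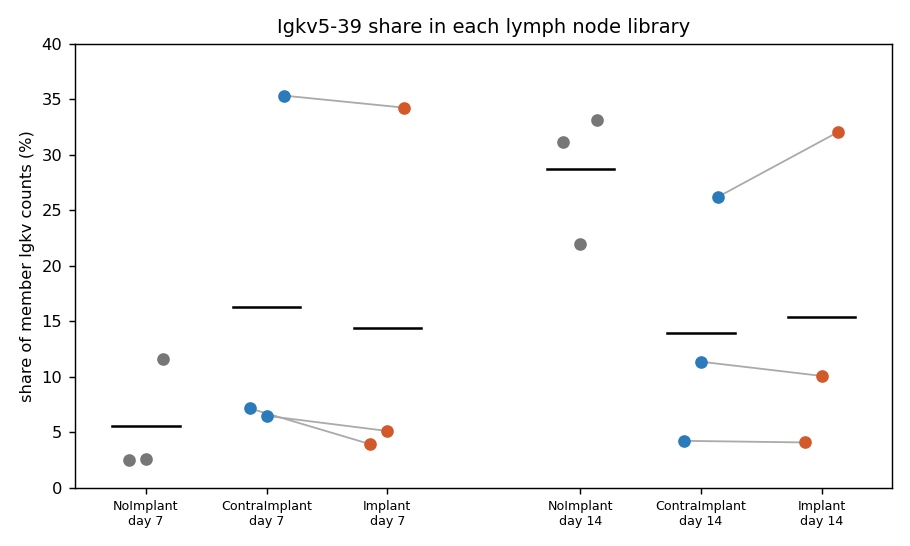
Share of Igkv5-39 among kappa segment counts (y axis, %) in each of the 18 lymph node libraries, by group (x axis), with black bars for group means and grey lines joining both nodes of a mouse. Mouse 9 (35.4% and 34.3%) and mouse 27 (26.2% and 32.1%) are high in both nodes, and the 3 NoImplant nodes of day 14 lie between 21.9% and 33.1%.

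The segments whose levels were most like those of Igkv5-39 over the 18 libraries were all heavy chain segments. Pearson's r of log2 CPM was 0.79 for Ighv1-59, 0.78 for Ighv14-4 and 0.75 for Ighv1-71, against a median of 0.39 for all other members. Ighv1-71 has an identical copy, so its counts may belong to either. The lowest value was -0.52, for Igkv15-103. These points share libraries and the total antibody level, and 12 of them come from 6 mice.

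Among heavy chain segments no member led in the way Igkv5-39 did. The largest mean shares were those of Ighv1-80 (4.69%), Ighv9-3 (3.80%), Ighv3-6 (3.78%), Ighv1-64 (3.49%) and Ighv5-4 (2.96%). Ighv3-6 was the steadiest of these, from 2.09% to 6.36%. Ighv5-4 was the least steady, from 0.967% to 15.9%, the highest value being that of NoImplant day 14 replicate 1. Per exonic length Ighv5-4 ranked 11 instead of 5, and the first 4 kept their ranks. Members of family Ighv1, the largest with 37 members, took 36.9% to 62.6% of heavy chain counts with a mean of 50.3%. Ighv5, with 8 members, took 5.35% to 26.9%, with a mean of 19.5% ± 8.63 (SD, n = 3) in NoImplant nodes of day 14 and between 6.42% and 10.1% in the other groups.

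The 3 lambda segments were Iglv1, Iglv3 and Iglv2, with mean shares of lambda counts of 51.7%, 28.8% and 19.4%. Iglv1 took 77.4% and 81.5% in NoImplant day 14 replicates 2 and 3, and between 36.5% and 60.2% in the other 16 libraries. Replicate 1 of that group had 38.8%, among the lowest values, so the group did not stand apart. Iglv1 and Iglv2 are 97.3% identical over the last exon. Lambda made up 6.08% to 23.8% of light chain segment counts, with the highest value in NoImplant day 14 replicate 3.

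Most segments varied widely between libraries. The highest share was at least 10 times the lowest for 38 of 76 heavy chain and 49 of 82 kappa members, with medians of 9.99 and 12.2 times. Among the heavy chain and kappa members above 0 in every library the extremes were Igkv3-4, at 2.47 times, and Igkv1-122, at 123 times. Ighv1-43 had no count in 3 libraries and a highest share of 1.29%, so no ratio is given for it. A segment was called raised in a library when its share was at least 5 times its median over the other 17 libraries and at least 2% of its locus. This was met 55 times, by 42 segments, in 17 of 18 libraries, with 21 in NoImplant, 19 in ContraImplant and 15 in Implant nodes. By group it was met 8 and 13 times in NoImplant nodes of day 7 and day 14, 10 and 9 times in ContraImplant and 9 and 6 times in Implant nodes.

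Many raised segments were high in both nodes of a mouse. Igkv4-53 took 10.3% of kappa counts in the ContraImplant and 6.80% in the Implant node of mouse 9, against a median of 0.573% over the other libraries of the first. Igkv10-94 took 6.11% and 5.31% in the nodes of mouse 7, against 0.592%. Ighv1-64 took 12.5% and 11.0% of heavy chain counts in mouse 7, against 2.04%. In each of these the 2 highest of the 18 libraries were the nodes of 1 mouse. Ighv1-78 was likewise at 6.55% and 9.76% in mouse 27, and Igkv19-93 at 21.8% and 7.78% in mouse 26. Of the 34 cases in mice with 2 nodes, the other node had the highest share among the 17 other libraries in 20. It was at least 5 times the median in 15 and at least 2 times in 29. A segment raised in both nodes of a mouse enters these numbers 2 times, so the 34 cases are not separate. This holds for Igkv4-53, Igkv10-94, Ighv1-64, Ighv1-78, Igkv4-57 and, in mouse 8, Igkv1-122.

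Other raised segments were much lower in the other node of the mouse. Igkv6-23 took 8.86% of kappa counts in the Implant node of mouse 26 and 0.848% in its ContraImplant node, which ranked 16 of the 17 others. Ighv1-42 took 8.76% of heavy chain counts in the ContraImplant node of mouse 25 and 1.32% in its Implant node. In NoImplant mice only 1 node was sampled. The largest cases there were Ighv10-1 at 22.6% and Igkv15-103 at 14.3%, both in day 7 replicate 2, and Ighv5-4 at 15.9% and Ighv1-5 at 11.3% on day 14. The node with 22.6% of Ighv10-1 was also the one with 1014 CPM of muscle markers.

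Whole profiles of shares were compared by Bray-Curtis dissimilarity, which is 0 for equal shares and 1 when no segment is shared. For heavy chain segments the median was 0.202 between both nodes of a mouse (6 pairs, 0.160 to 0.290), 0.329 within a group (18 pairs), 0.354 between groups of a day and 0.347 between days. For kappa segments it was 0.180 in a mouse (0.133 to 0.315), 0.365 within a group, 0.376 between groups of a day and 0.377 between days. Nodes of the same group were thus about as unlike as nodes of different groups. The nearest library was the other node of the mouse for 8 of 12 libraries by heavy chain and 10 of 12 by kappa shares, and again for 10 of 12 by kappa shares without Igkv5-39. The exceptions by kappa shares were the Implant nodes of mice 8 and 26, both nearest to NoImplant day 7 replicate 3 at 0.135 and 0.204.

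**Figure D2:**
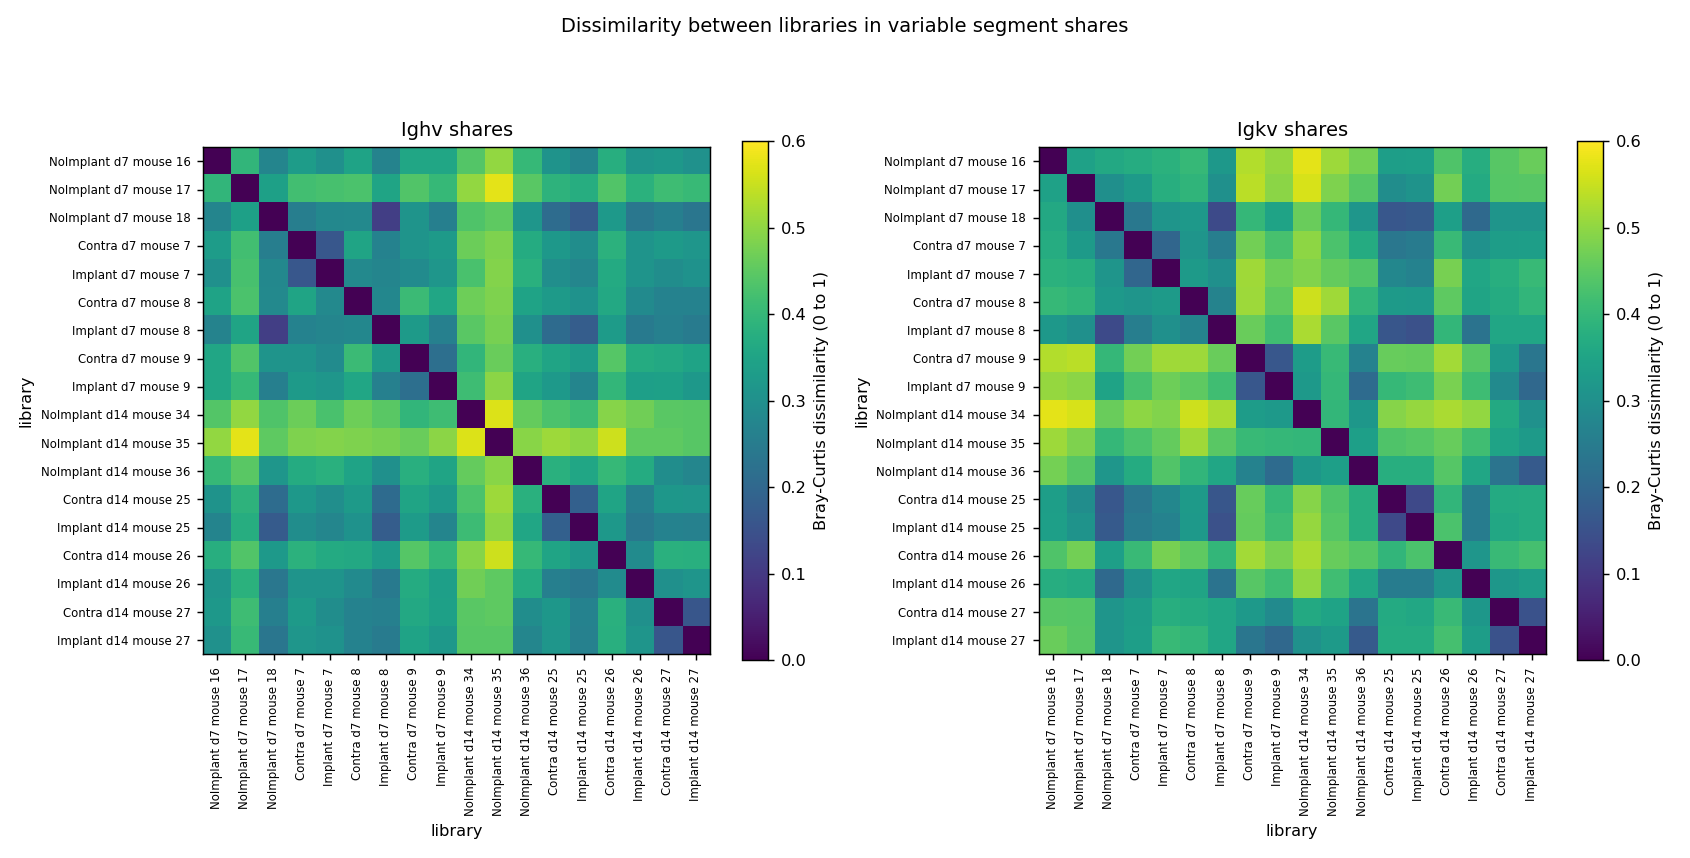
Bray-Curtis dissimilarity (colour, 0 to 1) of heavy chain (left) and kappa (right) segment shares between the 18 lymph node libraries (both axes), ordered by day with both nodes of a mouse side by side. Nodes of 1 mouse, beside the diagonal, have values from 0.133 to 0.315, and NoImplant day 14 mouse 35 is a light band in the left panel.

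Across segments of 1 mouse, log2 shares (with 0.05 percentage points added) in both nodes correlated at r of 0.82 to 0.90 for heavy chain and 0.85 to 0.93 for kappa segments, over 76 and 82 segments that are no independent replicates. With libraries of other mice the medians were 0.63 to 0.73 and 0.74 to 0.81. The highest r with such a library was above that between both nodes in mouse 8 for heavy chain (0.87 against 0.83), and in mice 25 (0.91 against 0.90) and 26 (0.88 against 0.85) for kappa segments. In mouse 25, 71 of 76 heavy chain and 75 of 82 kappa shares were within 2-fold between nodes. The lowest numbers were 58 of 76 in mouse 8 and 61 of 82 in mouse 26. The mean log2 CPM difference was smaller between both nodes of a mouse than between Implant and ContraImplant nodes of different mice on the same day for 143 of 160 segments (89.4%), against 71.8% of all genes tested. It was less than 50% as large for 47 segments (29.4%), against 5.69% of all genes. The median segment differed by 0.586 log2 units between nodes of a mouse and by 0.913 between mice, while the median gene differed by 0.237 and 0.277. By the ratio of both differences, the members after Igkv5-39 were Ighv5-4 (0.32 and 1.49), Igkv1-135 (0.20 and 0.92) and Ighv1-59 (0.24 and 0.99).

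**Figure D3:**
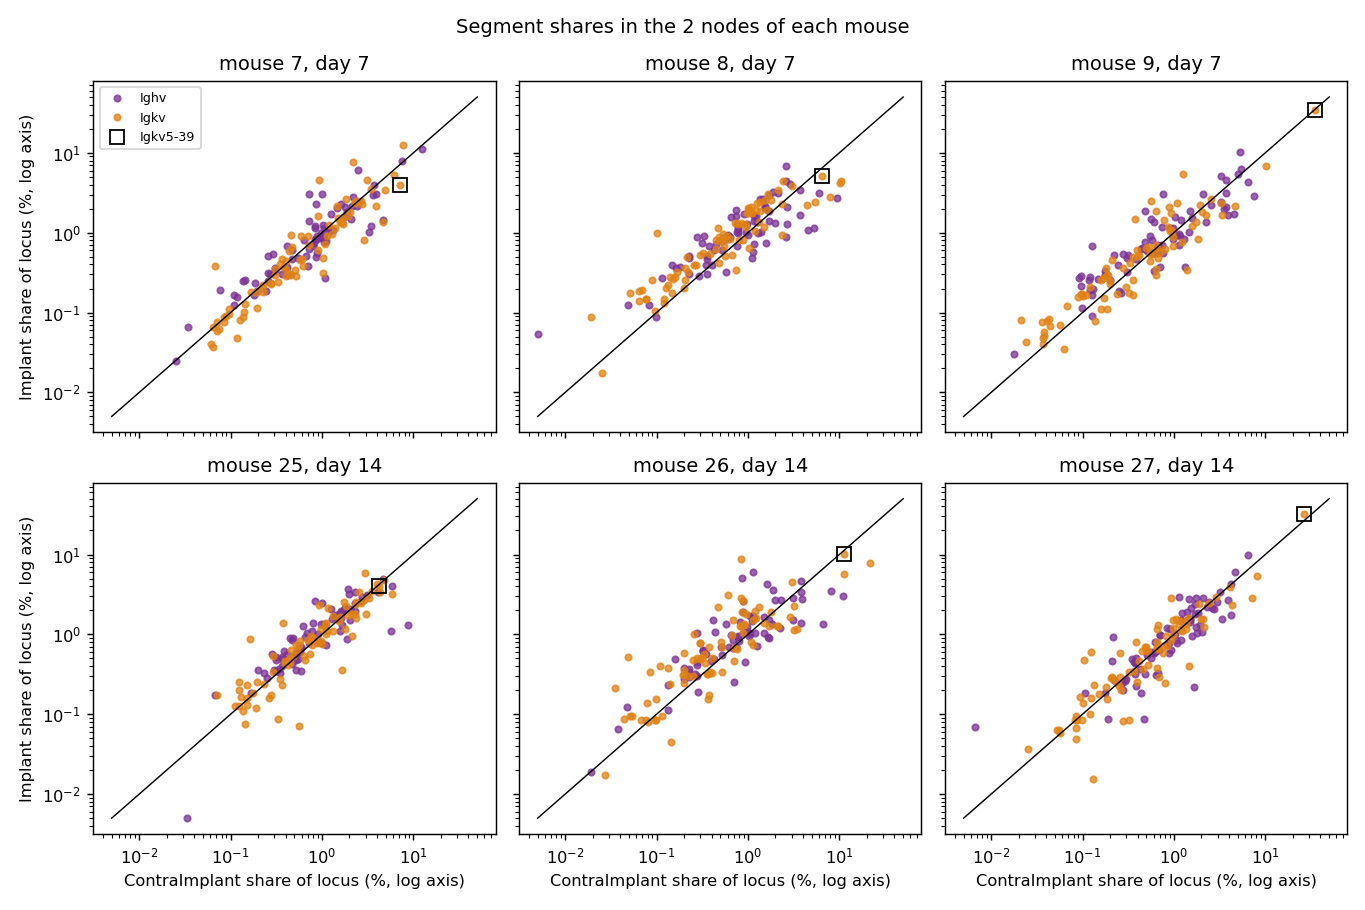
Share of each heavy chain (purple) and kappa (orange) segment in the ContraImplant node (x axis, %, log scale) and the Implant node (y axis, %, log scale) of 6 mice, with the line of equal shares and a square for Igkv5-39 (a share of 0 is drawn at 0.005%). Points follow the line in all 6 mice, and Igkv5-39 lies near it at 35.4% and 34.3% in mouse 9 and at 4.23% and 4.08% in mouse 25.

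Direction within mice was mixed, with more segments higher in the Implant than in the ContraImplant node. The share was higher in the Implant node in 6 of 6 mice for 11 of 161 segments, among them Igkv4-69, Igkv6-25 and Ighv14-1. It was higher there in 5 of 6 for 23, in 2 for 26, in 1 for 5 and in none for Igkv4-86. For 95 segments it was higher in 3 or 4 of 6 (46 and 49). Shares of a locus are tied, since a lower share of 1 segment raises the others. How far this set the direction was not tested. No segment passed edgeR's test with the mouse as a block on either day. The share of all genes that passed in that fit is not given here, so this count is no result about the segments.

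How evenly the segments of a locus were used was measured by Pielou evenness, which is 1 when all segments take equal shares and falls towards 0 when few segments take most. No p-value is given for it. Heavy chain evenness in NoImplant nodes of day 14 was 0.810, 0.815 and 0.863, in ContraImplant nodes 0.902, 0.869 and 0.918, and in Implant nodes 0.935, 0.918 and 0.902. All 3 NoImplant nodes thus lay below the 6 nodes of the other groups on that day, with the nearest pair at 0.863 and 0.869. The mean difference was 0.089 for Implant and 0.067 for ContraImplant nodes against the same 3 NoImplant nodes. The effective number of heavy chain segments, the exponential of Shannon entropy, was 33.4, 34.0 and 42.0 in NoImplant nodes and 57.5, 53.3 and 49.7 in Implant nodes. On day 7 heavy chain evenness was 0.900, 0.803 and 0.935 in NoImplant, 0.871, 0.892 and 0.861 in ContraImplant and 0.876, 0.929 and 0.877 in Implant nodes, and the groups overlapped.

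Kappa evenness fell into a wider range, from 0.677 to 0.909. In NoImplant nodes it was 0.864, 0.844 and 0.879 on day 7 and 0.677, 0.760 and 0.742 on day 14, 2 sets from different mice that did not overlap. Implant and NoImplant nodes overlapped on both days. The Implant nodes had 0.836, 0.909 and 0.710 on day 7 and 0.903, 0.850 and 0.743 on day 14, and the ContraImplant nodes 0.860, 0.827 and 0.683, then 0.900, 0.749 and 0.757. Without Igkv5-39 the NoImplant range was 0.841 to 0.905 on day 7 and 0.781 to 0.897 on day 14, and these overlapped. Within mice, heavy chain evenness was higher in the Implant than in the ContraImplant node in 3 of 3 mice on day 7 and 2 of 3 on day 14, and kappa evenness in 2 of 3 on each day.

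**Figure D4:**
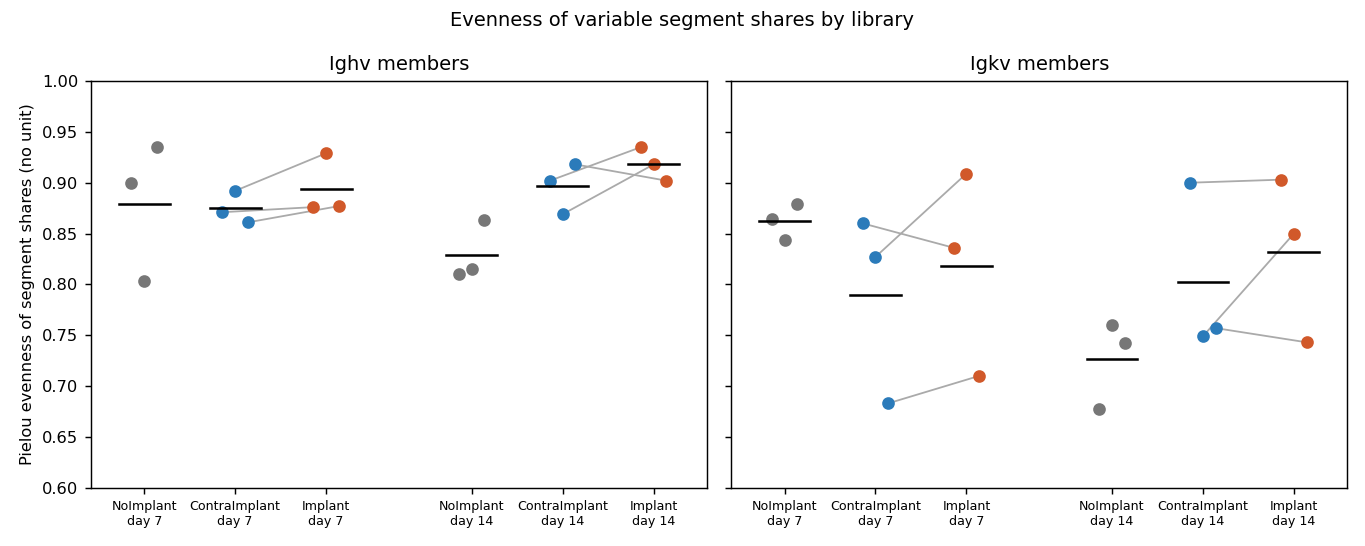
Pielou evenness (y axis, no unit, drawn from 0.6) of heavy chain (left) and kappa (right) segment shares in each lymph node library, by group (x axis), with black bars for group means and grey lines joining both nodes of a mouse. The 3 NoImplant nodes of day 14 lie below all other day 14 nodes in the left panel, from 0.810 to 0.863, and kappa values spread from 0.677 to 0.909.

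The heavy chain, kappa and lambda segments together reached 815.5 CPM in the lowest library and 5258 CPM in the highest, with a median of 1687 CPM. On day 7 the summed level was 1696, 1281 and 815.5 CPM in NoImplant, 1678, 1056 and 3547 CPM in ContraImplant and 1854, 845 and 2079 CPM in Implant nodes. On day 14 it was 2967, 5258 and 1484 CPM in NoImplant, 844.5, 1972 and 2066 CPM in ContraImplant and 978.9, 1657 and 1980 CPM in Implant nodes. The groups overlapped in all 6 comparisons. The highest 3 libraries were NoImplant day 14 replicate 2, the ContraImplant node of mouse 9 and NoImplant day 14 replicate 1. Kappa segments took between 60.1% and 73.8% of the segment counts, heavy chain segments 21.1% to 29.8% and lambda segments 4.58% to 18.8%.

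Single segments were then compared between groups. Of the 161 segments 160 were tested, and Ighv1-43, with 545 counts in all, did not pass the filter on low counts. On day 14, 4 of 160 segments were lower in Implant than in NoImplant nodes and none was higher (2.5%, against 5.97% of all genes called in either direction, 3.44% higher and 2.53% lower). They were Igkv4-69, Igkv9-120, Igkv4-86 and Ighv1-5. At an unadjusted p below 0.05 there were 34 segments, or 21.2%, against 28.4% of all genes. DESeq2 called 12 of the 150 segments for which it gave an adjusted p, 3 of these 4 among them, with 2 higher and 10 lower (8%, against 15.4% of all genes). With edgeR the share of segments called was thus at or below that of all genes.

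No segment passed edgeR's test in the other comparisons. In Implant against NoImplant on day 7, 0.0437% of all genes passed, and 17 segments had an unadjusted p below 0.05 (10.6%, against 18.2% of all genes). DESeq2 called 2 segments there, both lower (1.33%, against 4.37% of all genes). In Implant against ContraImplant on day 7, 0.715% of all genes passed, and 2 segments had an unadjusted p below 0.05 (1.25% against 20.6%). On day 14 of that comparison 0% of all genes passed, and 8 segments were below 0.05 unadjusted (5% against 8.46%). These Implant against ContraImplant tests did not pair the nodes of a mouse. In ContraImplant against NoImplant 0% of all genes passed on either day. Unadjusted, 30 segments were below 0.05 on day 7 (18.8% against 7.37%) and 43 on day 14 (26.9% against 5.8%). DESeq2 called 1 segment on day 14 (0.667%, against 0.0856% of all genes) and none on day 7 (0.00565% of all genes). The test of whether the Implant difference changed between days called 0% of all genes and no segment, against NoImplant (27 segments unadjusted, 16.9% against 5.03%) or against ContraImplant (5 segments, 3.12% against 1.82%). DESeq2 called no segment in these 2 tests (0.0386% of all genes against NoImplant, 0% against ContraImplant) or in Implant against ContraImplant on day 7 (6.38%) or day 14 (0.0708%).

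Igkv9-120 was read at 44.7, 75.1 and 14.9 CPM in the NoImplant nodes of day 14 and at 11.5, 13.9 and 13.1 CPM in the Implant nodes. The ranges did not overlap, but the lowest NoImplant node lay close to the Implant nodes. Its log2 fold change was -1.81 ± 0.51 (SE), with an edgeR adjusted p of 0.049. Igkv4-69, the member with the lowest summed count, had 172 of its 506 counts in the NoImplant nodes of day 14. With the other 334 alone it would not be a member, so its place in the list leans on the group in which it was high. It was read at 2.93, 1.93 and 1.28 CPM in NoImplant and 0.803, 0.965 and 0.876 CPM in Implant nodes, a log2 fold change of -1.21 ± 0.30 (SE) with an edgeR adjusted p of 0.0356. Each call was lost when any 1 library of either group was left out, with adjusted p from 0.0592 to 0.185 for Igkv9-120 and from 0.0770 to 0.112 for Igkv4-69. As a share of the kappa counts the log2 ratio of group means was -0.55 for Igkv9-120 and -0.26 for Igkv4-69.

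The other pair of calls each rested on 1 NoImplant node. Igkv4-86 was read at 178.0, 11.3 and 5.90 CPM in NoImplant and 6.11, 3.75 and 3.38 CPM in Implant nodes, with a log2 fold change of -3.87 ± 1.0 (SE) and an edgeR adjusted p of 0.0374. Without NoImplant replicate 1 its log2 fold change was -0.95, with an adjusted p of 0.263. Ighv1-5 was read at 3.05, 154.7 and 1.59 CPM in NoImplant and 1.92, 2.82 and 2.88 CPM in Implant nodes, with a log2 fold change of -4.39 ± 1.19 (SE) and an edgeR adjusted p of 0.0448. Without NoImplant replicate 2 the value was 0.13, with an adjusted p of 0.889. In each case 1 NoImplant node was far above the other nodes, and the group ranges overlapped.

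Over all tested segments the median log2 fold change of Implant against NoImplant was 0.29 on day 7 and -0.39 on day 14, while that of all genes was -0.000822 and -0.00206. It was -0.25 and 0.07 in Implant against ContraImplant, and 0.45 and -0.43 in ContraImplant against NoImplant. Comparisons that share the NoImplant nodes share their values, and 22 of the 161 members would fall below 500 counts without their highest group, so these medians are given as a description. The share of segments whose CPM ranges did not overlap was below that of all genes in each of these 6 comparisons. It was 13.75% against 31.8% in Implant against NoImplant on day 7, 7.5% against 32.8% on day 14, 2.5% against 21.8% in Implant against ContraImplant on day 7 and 5.63% against 18.3% on day 14. In ContraImplant against NoImplant it was 8.13% against 10.3% and 4.38% against 10.1%.

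**Figure D5:**
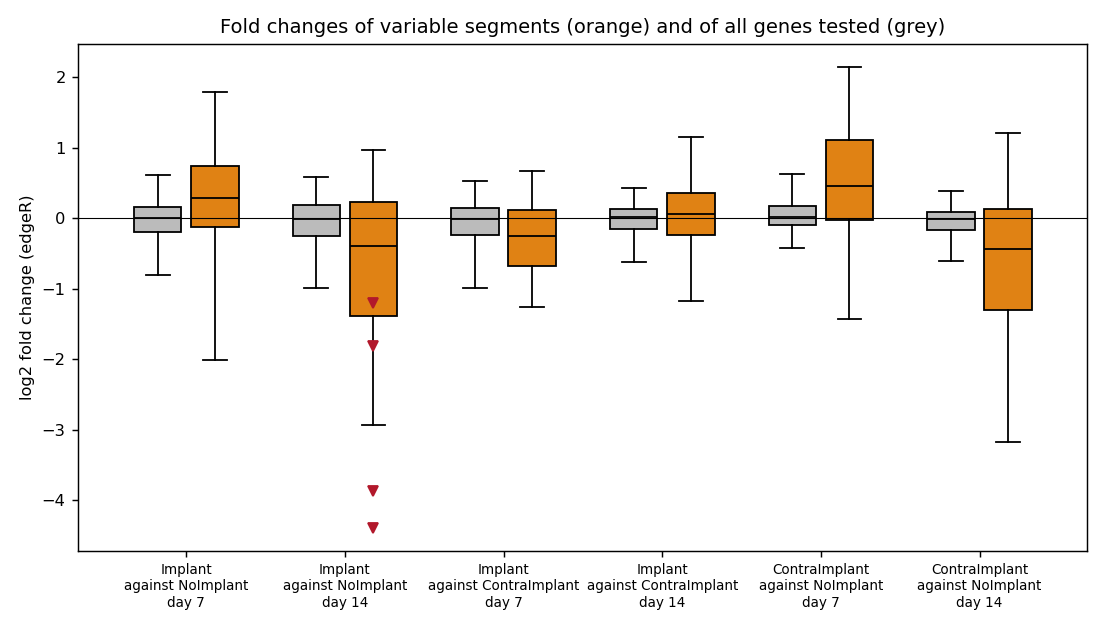
Log2 fold changes (y axis, edgeR) of the 160 tested variable segments (orange) and of all 18312 genes tested (grey) in 6 comparisons (x axis), with boxes between the quartiles, black lines for medians, whiskers from the 5th to the 95th percentile and triangles for the 4 segments with an adjusted p below 0.05. The orange boxes are longer than the grey ones in every comparison, and the called segments run from Igkv4-69 at -1.21 to Ighv1-5 at -4.39.

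Position along the locus was described as well. The 52 kappa members on the minus strand took a median of 64.0% of kappa counts, from 48.6% to 78.2%, and 45.1% to 75.4% without Igkv5-39. The middle part of the kappa locus, 27 members from Igkv12-89 to Igkv12-44, took 11.6% to 24.1% of counts. The part from Igkv5-43 to Igkv3-1, also 27 members, took 28.4% to 61.2%, with a mean of 59.6% in NoImplant nodes of day 14 and 37.8% to 46.9% in the other groups. Igkv5-39 belongs to this last part. The 3 parts of the heavy chain locus had medians of 32.0%, 31.2% and 35.1%.

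Constant region genes, which tell the antibody class and are counted apart from the variable segments, were read at these levels. Igkc, the kappa constant region, was at 9178, 13100 and 3846 CPM in NoImplant nodes of day 14 and at 2574, 3874 and 4931 CPM in Implant nodes. Jchain, which links IgM and IgA units and is high in plasma cells, was at 1243, 2377 and 538 CPM and at 303, 440 and 697 CPM. Ighg2c, a class-switched IgG, was at 1556, 3120 and 219 CPM and at 146, 387 and 138 CPM. The ranges overlapped for all 3 genes, and none passed (edgeR adjusted p of 0.185, 0.229 and 0.129). Among these 6 nodes Igkc, Jchain, Ighg2c and the summed segments were all highest in NoImplant replicate 2. In Implant against NoImplant the log2 fold change was -2.03 for Ighg3, -1.45 for Ighg2b, -1.44 for Ighe and -1.43 for Ighg1. It was -0.77 for Ighm, -0.28 for Iglc2, -0.03 for Iglc3 and 0.41 for Igha, and none of these passed.

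Of the 13 genes of the constant region list, 1 rose and 1 fell in Implant against NoImplant nodes on day 14. Of all genes 3.44% were called higher and 2.53% lower. Ighd, the IgD constant region of naive B cells, was at 908, 628 and 746 CPM in NoImplant and 1017, 1225 and 1316 CPM in Implant nodes, with a log2 fold change of 0.64 ± 0.15 (SE) and an edgeR adjusted p of 0.0299. Iglc1, a lambda constant region used with Iglv1, was at 132, 449 and 460 CPM in NoImplant and 82.8, 130.3 and 101.1 CPM in Implant nodes. Its log2 fold change was -1.73 ± 0.41 (SE), with an edgeR adjusted p of 0.0299. The NoImplant node with the least Iglc1 was the one with the low Iglv1 share of 38.8%. Both calls were lost without NoImplant replicate 2 or 3 or Implant replicate 2 or 3, and that of Iglc1 also without Implant replicate 1, with adjusted p of at most 0.116. The median log2 fold change of the list was -1.43, beside -0.00206 for all genes.

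Among other B cell genes, 7 of 20 mature B cell genes rose in that comparison and none fell. Of all genes 3.44% were called higher and 2.53% lower. The 7 included Fcer2a, the low-affinity IgE receptor (log2 fold change of 0.76 ± 0.17, SE), Cd22, an inhibitory co-receptor (0.73 ± 0.17), and Blk, a kinase of B cells (0.58 ± 0.13). Their edgeR adjusted p ran from 0.0283 to 0.0298. Of 20 plasma cell genes 1 fell, Sdf2l1, a chaperone partner of the endoplasmic reticulum (-0.46 ± 0.12, SE, edgeR adjusted p of 0.043). The mature B cell count was 0 without NoImplant replicate 2 or 3 or Implant replicate 2 or 3 of day 14, and 14 without ContraImplant day 7 replicate 2 or NoImplant day 14 replicate 1. It was 12 and 4 without ContraImplant day 14 replicates 3 and 2, and also 4 without Implant day 14 replicate 1, each Implant node of day 7 or NoImplant day 7 replicate 1 or 2. DESeq2 called 16, where it called 15.4% of all genes in either direction, and the fit with the replicate number as a block called 11. For that block and the runs with a library left out, the share of all genes called is not given here. The call of Sdf2l1 was lost without any of 9 libraries, among them all 6 of the compared groups. No gene passed among 20 germinal centre genes, 18 cell cycle genes and the 2 tested of 6 genes of V(D)J recombination, the joining of segments. In the same comparison the adipocyte markers summed to 356 to 1992 CPM in NoImplant and 72.0 to 283 CPM in Implant nodes. In the other 5 group comparisons no gene of these 6 lists passed. Of all genes 0.0437% passed in Implant against NoImplant and 0.715% in Implant against ContraImplant on day 7. It was 0% in Implant against ContraImplant on day 14 and in ContraImplant against NoImplant on either day. On day 7 the 18 cell cycle genes summed to 828 to 1087 CPM in Implant nodes. The sums were 455 to 612 CPM in NoImplant and 438 to 1051 CPM in ContraImplant nodes.

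Joint soft tissue held few of these messages. Of the 161 segments 143 are listed there, with 5 to 92 counts per library in all and a summed level of 0.280 to 4.21 CPM, set on a different table from the nodes. Over all 24 libraries the segments had 949 counts. Igkv5-39 had 4 of 513 kappa counts, a share of 0.780% (95% Wilson interval 0.304% to 1.99%), in 3 libraries. This interval pools the 24 libraries and covers counting error only, not the spread between libraries. The library labelled LST day 35 replicate 4 held 2 of the 4 counts. Igkv3-4, Igkv1-110 and Igkv14-126 were the largest kappa segments there, at 27, 25 and 24 counts. With so few counts per library, evenness was not computed.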

How the data were processed

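RNA-seq was made of whole nodes and of joint soft tissue. Per the labels' protocols, tissue was flash frozen, RNA came from RLT (nodes) or Trizol (joint) lysates, and the NEBNext Ultra II kit was used. Per the submitters' processing notes, fastp and STAR were run on mm10. The deposited tables hold raw counts, 1 row a gene. The sources used here do not give the counter, its annotation, its strand setting or its handling of reads that fit several places, so values of near-identical segments are uncertain. Identifiers were matched to GENCODE M21 (54723 of 54752 node rows).

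Counts were tested with edgeR 4.0.16 in R 4.3.3: filterByExpr (minimum count 10, 18312 genes kept), TMM scaling and 1 quasi-likelihood fit over the 18 node libraries in 6 groups, with Benjamini-Hochberg adjustment per comparison. CPM are on the TMM scale. Each SE was taken from the fold change and the F statistic. The fit was tested on simulated data with an equal spread for every gene and no effect shared by the nodes of a mouse. That test does not cover the spread of the segments. Shares are counts over the member counts of a locus. Identity between last exons was computed with edlib. The column names give separate animals within a node group, and replicates differed by more than sampling noise.

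The numbers pair Implant with ContraImplant nodes, since the column names give the same animal: deviations from group means correlated at 0.54 to 0.72 over members and 0.11 to 0.40 over all genes. Implant and NoImplant nodes of the same number are different animals.

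Segments named are the 5 of largest mean share per locus (all 3 of Iglv), those called with ranges that do not overlap, those raised in a library and those beside the threshold of 500 counts. The last were Igkv4-69 (506), Ighv5-2 (519) and an Igkv9 segment (519) inside it, and Igkv11-125 (475), Ighv9-2 (446) and Igkv5-45 (446) outside. Igkv4-86 and Ighv1-5, segments given for their direction within mice and those most like Igkv5-39 or closest within mice were named after their values were seen. Members, lists and this rule were chosen with earlier results of these data known. Alternatives were RLE scaling, TMM without receptor genes, DESeq2 1.42.0, no filter, replicate blocks, leaving out each library and other ways of taking shares.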

Additional observations from a re-analysis of the deposited data

Results flagged for a closer look

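In joint soft tissue, RST day 35 replicate 2 stood apart from the other 3 libraries of its group in the summed level of the variable segments, at 4.21 CPM against 0.921, 1.20 and 1.32 CPM. Its gap to the nearest library exceeds Dixon's 95% limit for 4 samples. Chance passes that limit in about 1 of 20 groups, and the 6 groups of joint tissue were looked at. The value rests on 92 segment counts.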

How the results depend on the processing

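The 4 calls of Implant against NoImplant on day 14 became 12 with DESeq2 (2 higher, 10 lower, 3 of them shared with the 4) and 7 without a filter on low counts (all 4 shared). They stayed the same 4 with RLE scaling or TMM without receptor genes. Leaving out 1 of the 18 libraries gave 0 to 9. It gave 0 without Implant replicate 2 or 3 or NoImplant replicate 2 or 3 of day 14, and 9 without ContraImplant day 7 replicate 2, the library with the most adipocyte markers. It gave 1 without Implant day 14 replicate 1, Implant day 7 replicate 3 or NoImplant day 7 replicate 1. It gave 2 without ContraImplant day 14 replicate 1, Implant day 7 replicate 1 or 2 or NoImplant day 7 replicate 3. Over single libraries left out, the log2 fold change of Ighv1-5 ran from -4.97 to 0.13, the last without NoImplant day 14 replicate 2. With the replicate number as a block, 5 segments passed, of which only Igkv9-120 was among the 4. That block joins NoImplant nodes to nodes of other mice. With the animal as a block none passed in Implant against ContraImplant on either day. The blocks changed no other count of segments, and with the number block 11 mature B cell genes passed in place of 7. DESeq2 called 2 segments in Implant against NoImplant on day 7, 1 in ContraImplant against NoImplant on day 14, 16 in NoImplant day 14 against day 7 and 1 in ContraImplant day 14 against day 7, where edgeR called 0. Leaving out libraries gave 0 to 3 in NoImplant day 14 against day 7, with 3 without NoImplant day 14 replicate 1, and 0 in the rest. Among these alternatives the share of all genes called is given for DESeq2 only, so the changes are not shown to be particular to segments. The causes were not tested.

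Evenness differences moved by less than 1 SD, pooled over the libraries within the compared groups, in 149 of 150 alternatives. The exception was Igkv evenness, ContraImplant against NoImplant, day 14, which was 0.0757 and became 0.0023 without Igkv5-39. By this rule a small difference can change sign and still count as unmoved. With single libraries left out, Ighv evenness of Implant against NoImplant ran from -0.0236 to 0.0427 on day 7 and from 0.0798 to 0.106 on day 14. Igkv evenness of Implant against ContraImplant on day 7 ran from -0.0254 to 0.0825. Leaving out pseudogenes could not change Ighv evenness, as no Ighv member is one. The comparisons between days, the runs without Igkv5-39 and the alternatives for B cell genes were chosen after seeing the data. Depth limits the joint tissue, where no library had over 92 segment counts.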
